A study of Mus musculus with 2 samples.

Results

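Nav2, Sfmbt2 and Sorcs2 are 3 long genes in which reduced representation bisulfite sequencing (RRBS) found differentially methylated positions (DMPs) between wildtype and oestrogen receptor β (ERβ) knock-out mouse embryonic fibroblasts (MEFs). Every cytosine covered in both libraries that lay in the gene body of GENCODE on the mouse build NCBIM37 (mm9) or in the 5 kb before its start was taken. This gave 454 of 826937 positions, in 3 of 17643 protein-coding genes with a covered position. Nav2 (chromosome 7, 56501559 to 56865457, plus strand) held 203 positions, Sfmbt2 (chromosome 2, 10292137 to 10516880, plus strand) 48 and Sorcs2 (chromosome 5, 36359829 to 36740788, minus strand) 203.

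The study asked how loss of ERβ, encoded by Esr2, changes DNA methylation. Both groups were embryonic fibroblasts labelled as C57BL/6 and grown without any agent named in the labels, in high-glucose DMEM with foetal calf serum. The wt MEFs carried Esr2 and the βerko MEFs were ESR2 -/-, from mice that lacked it in all tissues. Methylation values can check neither this genotype nor the fibroblast identity of the cells. There was 1 library per genotype, made from 3 pooled batches of DNA, so that no spread between cultures or animals could be measured and a difference between the libraries cannot be told apart from a difference between cell preparations. The genes were selected on their differences between these same libraries, and all values below describe them without a test.

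In mammals, methylation is found mostly at cytosines followed by guanine (CpGs). CpG-rich stretches around gene starts are usually free of it, whereas gene bodies are mostly methylated. In RRBS, DNA is cut at CCGG with MspI, so that reads start at these sites and cover short patches of a gene. Nav2 encodes neuron navigator 2, a cytoskeleton-associated protein that is induced by retinoic acid and needed for outgrowth of nerve fibres. Sfmbt2 encodes a Polycomb group protein with MBT domains. It is expressed from the paternal copy in extra-embryonic tissue and carries a large cluster of microRNAs in an intron. Sorcs2 encodes a sorting receptor of the VPS10 domain family, which binds precursors of neurotrophins.

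The tables list 6 DMPs in the 3 genes, 3 that were lost and 3 that were gained in βerko MEFs. A DMP was methylated in less than 20 % of reads in one library and more than 80 % in the other. The study's criterion of more than 4 reads in both libraries was met by 5 of them. These were hypomethylated DMPs at 56583486 and 56777663 and a hypermethylated DMP at 56662363 in Nav2, a hypomethylated DMP at 10293199 in Sfmbt2 and a hypermethylated DMP at 36673546 in Sorcs2. Of all covered positions, 0.700 % were hypomethylated and 0.237 % hypermethylated DMPs, and of intronic positions 0.656 % and 0.277 %. The genes were chosen for these DMPs, so that nothing is read from their number. The sequences around those not in the Sfmbt2 start region are shown first because their surroundings differ in CpG content, with the CpG of the DMP in capitals, on the plus strand of NCBIM37.
Nav2, hypomethylated, intron 1, chr7:56583445-56583526: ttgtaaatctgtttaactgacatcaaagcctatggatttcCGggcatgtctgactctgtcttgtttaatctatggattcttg
Nav2, hypermethylated, intron 4, chr7:56662322-56662403: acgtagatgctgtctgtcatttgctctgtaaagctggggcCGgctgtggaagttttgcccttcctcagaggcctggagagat
Nav2, hypomethylated, intron 11, chr7:56777622-56777703: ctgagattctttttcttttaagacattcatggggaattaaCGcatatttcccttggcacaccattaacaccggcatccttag
Sorcs2, hypermethylated, intron 1, chr5:36673506-36673587: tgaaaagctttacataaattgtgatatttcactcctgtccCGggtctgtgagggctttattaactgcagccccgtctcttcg
Sfmbt2, hypermethylated, exon 17, chr2:10479205-10479286: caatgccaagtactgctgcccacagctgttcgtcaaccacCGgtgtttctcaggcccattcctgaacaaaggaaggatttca

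Introns and exons are numbered in the transcript with the most exons of each gene. Of the 6 DMPs, 5 were intronic. The hypermethylated position of Sfmbt2 lay in a coding exon in all 4 transcripts that span it, so that the positions are not all intronic. The hypomethylated DMP of Sfmbt2 lay in an intron of 3 of 10 GENCODE transcripts and before the first exon of the GENCODE transcript with the most exons. In the authors' annotation it lay in an intron of the transcript of the same name. It also lay within Gm13261, a long non-coding RNA gene on the other strand. The authors' annotation assigned none of the 6 to a repeat. A further hypermethylated DMP, at 56231549 on chromosome 7, was assigned to Nav2 by the authors. It lies 270010 bp before the start of the gene in GENCODE, outside the region taken here. Its methylation was 16.7 % over 6 wt reads and 85.7 % over 7 βerko reads.

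The 2 best covered DMPs were in Nav2. At 56583486, 47 of 48 reads (97.9 %) were methylated in wt and 1 of 27 (3.70 %) in βerko MEFs. The exact 95 % confidence intervals ran from 88.9 to 99.9 % and from 0.0937 to 19.0 %. At 56662363, 6 of 52 reads (11.5 %, interval 4.35 to 23.4 %) were methylated in wt and 26 of 26 (100 %, interval 86.8 to 100 %) in βerko MEFs. The intervals of the libraries were far apart at both positions. The libraries were amplified by PCR and carried no molecular identifiers, so copies of 1 molecule can count as several reads and all intervals cover counting error only.

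At 56777663 in Nav2, 13 of 14 reads (92.9 %, interval 66.1 to 99.8 %) were methylated in wt and 1 of 6 (16.7 %, interval 0.421 to 64.1 %) in βerko MEFs. In Sorcs2, 4 of 36 reads at 36673546 (11.1 %, interval 3.11 to 26.1 %) were methylated in wt and 26 of 27 (96.3 %, interval 81.0 to 99.9 %) in βerko MEFs. The Sorcs2 intervals were also apart, with a difference of 85.19 points between the values beside -94.22 and 88.46 at the best covered ones of Nav2, whereas the wide intervals at 56777663 nearly met.

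The Sfmbt2 positions rested on few reads. At 10293199, 5 of 5 reads (100 %, interval 47.8 to 100 %) were methylated in wt and 1 of 9 (11.1 %, interval 0.281 to 48.2 %) in βerko MEFs. Here the intervals overlapped. At 10479246 in exon 17, 1 of 12 reads (8.33 %, interval 0.211 to 38.5 %) was methylated in wt and 4 of 4 (100 %, interval 39.8 to 100 %) in βerko MEFs, and the intervals nearly met. With 4 reads, this position is listed among the deposited DMPs but does not have more than 4 reads.

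**Figure D1:**
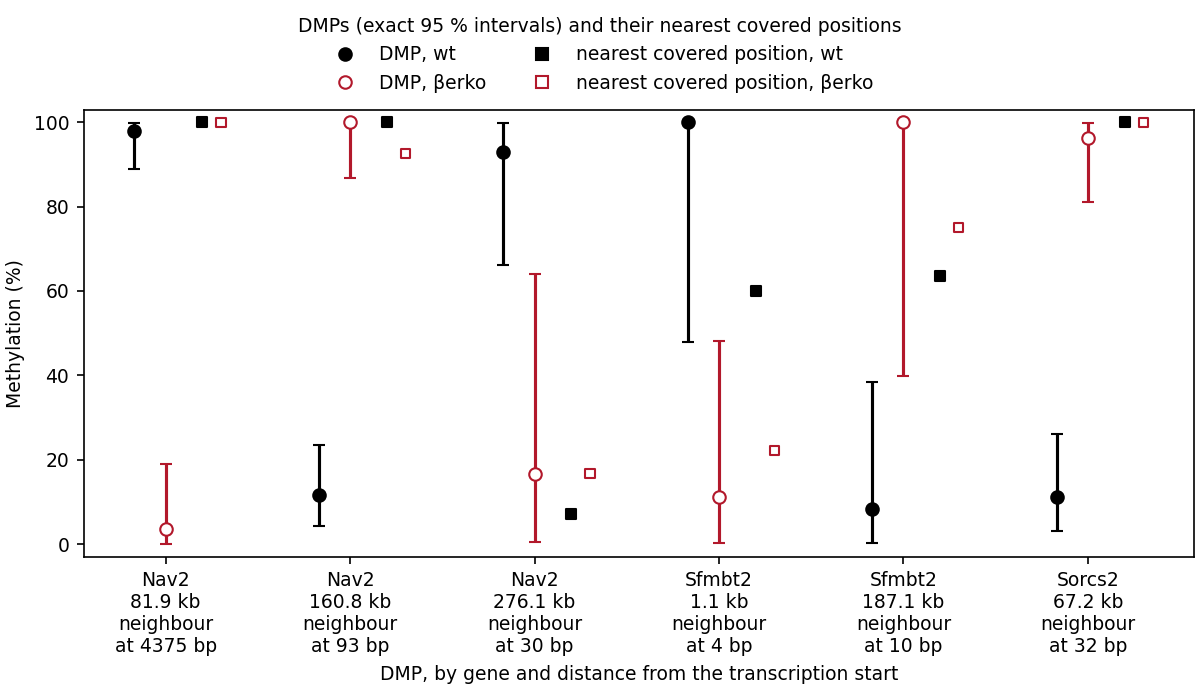
Methylation (%) at the 6 deposited DMPs (circles, with exact 95 % confidence intervals from the reads) and at the nearest covered position (squares, whose depth is unknown), in wt (black, filled) and βerko MEFs (red, open). The nearest position moved in the same direction by over 20 percentage points at the hypomethylated DMP of Sfmbt2, 1.1 kb from the gene start, and at none of the other 5. Beside the hypermethylated DMPs of Nav2 and Sorcs2 it was at 100 % in wt and could not rise. Beside the hypomethylated DMP of Nav2 at 56777663 it was at 7.14 % in wt and could not fall by 20 points.

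How far each change extended was read from the covered neighbours, whose depth is unknown. The hypermethylated DMPs stood alone. In Nav2, the covered positions next to 56662363 were 2 within 100 bp, with a mean of 95.9 % in wt against 96.3 % in βerko MEFs. The nearer of them, 93 bp away, was methylated at 100 % and 92.6 %. The wt library therefore had a single low position beside highly methylated ones, and in βerko MEFs all were high. On the other side no position was covered for 7047 bp.

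The same arrangement was seen in Sorcs2, where the position 32 bp from the DMP was at 100 % in both libraries. The 3 covered positions within 500 bp had a mean of 92.8 % in wt against 91.3 % in βerko MEFs. In Sfmbt2, the position 10 bp from the hypermethylated one was at 63.6 % in wt against 75.0 % in βerko MEFs, and that at 10479124, in the intron before the exon, was at 100 % in both. By the limit of 20 percentage points, none of the nearest covered neighbours of the 3 gains, at 93, 32 and 10 bp, rose. Those in Nav2 and Sorcs2, at 100 % in wt, could not rise, so they cannot show how far the gain extends. Only the neighbour in Sfmbt2 had room for such a rise.

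The hypomethylated DMPs of Nav2 differed from this in what surrounded them. At 56777663 the position 30 bp away was low in both libraries, at 7.14 % in wt against 16.7 % in βerko MEFs, so that the DMP was the high one of the pair in wt. At 56583486 no other position was covered within 1000 bp, and the extent of the largest loss of the 3 genes is unknown between 9568 bp on one side and 4375 bp on the other. The next position on the nearer side was at 100 % in both, and that on the farther side, at 56573918, was at 40 % in wt and 0 % in the βerko library. At none of the 6 DMPs was the other strand of the same CpG covered in both libraries, so that it gives no further reading.

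Over all positions, a difference of at least 20 percentage points was counted as a fall or a rise. In Nav2, 31 of 203 positions (15.3 %) fell and 12 (5.91 %) rose in βerko MEFs. In Sfmbt2, 14 of 48 (29.2 %) fell and 1 (2.08 %) rose. In Sorcs2, 19 of 203 (9.36 %) fell and 22 (10.8 %) rose. Over all covered positions, 10.4 % fell and 6.81 % rose, and over intronic positions 9.94 % and 7.03 %. Over their own introns, falls made up 18.5 % in Nav2, 37.8 % in Sfmbt2 and 11.9 % in Sorcs2. Rises made up 9.23 % of intronic positions in Nav2 and 15.1 % in Sorcs2, and there was none in the introns of Sfmbt2. Differences of this contrast were used in choosing the genes, so these shares are given beside the background without further reading.

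**Figure D2:**
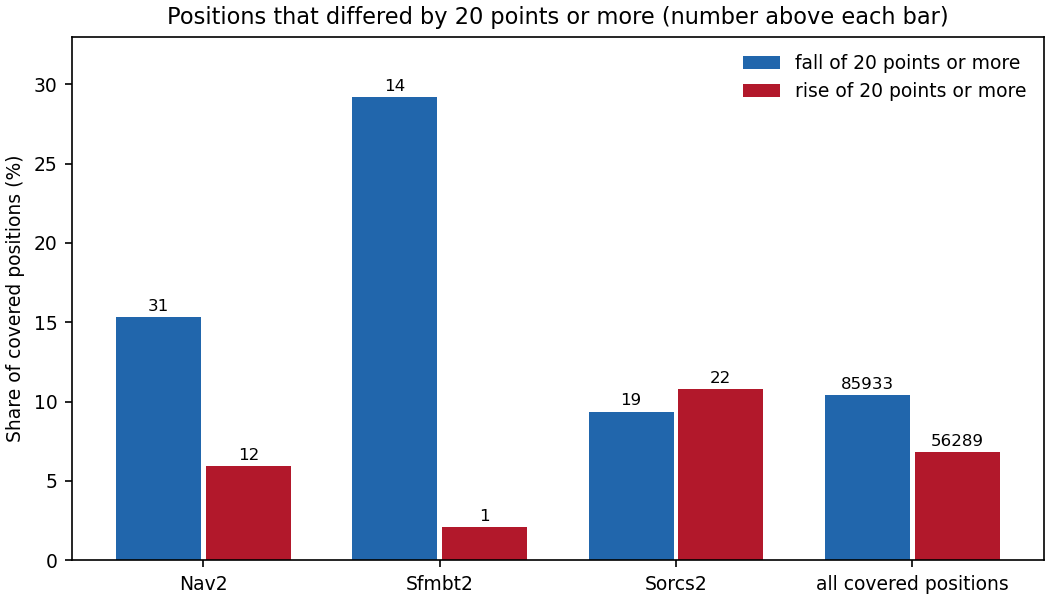
Share of covered positions (%) that fell (blue) or rose (red) by at least 20 percentage points in βerko MEFs, for each gene and for all 826937 covered positions, with the number of positions above each bar. Sfmbt2 has 14 falls and 1 rise, whereas Sorcs2 has 19 falls and 22 rises.

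The mean over positions was 67.2 % in wt against 62.5 % in βerko MEFs in Nav2, a difference of -4.73 percentage points. In Sfmbt2 it was 49.2 % and 35.6 %, a difference of -13.6 points. In Sorcs2 it was 55.1 % and 55.7 %, a difference of 0.644 points. The median position differed by 0 points in Nav2 and Sorcs2 and by -1.09 points in Sfmbt2, and 160 positions of Nav2, 33 of Sfmbt2 and 162 of Sorcs2 differed by less than 20 points. Of the positions, 71.9 % in Nav2, 58.3 % in Sfmbt2 and 69.0 % in Sorcs2 were below 20 % in both libraries or above 80 % in both, beside 74.0 % of all covered positions. Among 11298 protein-coding genes with at least 20 covered positions, 593 (5.25 %) had a lower mean difference than Sfmbt2, 2049 (18.1 %) a lower one than Nav2 and 9030 (79.9 %) a lower one than Sorcs2. The genes were chosen on this contrast, so these ranks are a description only. The mean of Sfmbt2 also rests on 48 positions, beside 203 in each of the others.

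**Figure D3:**
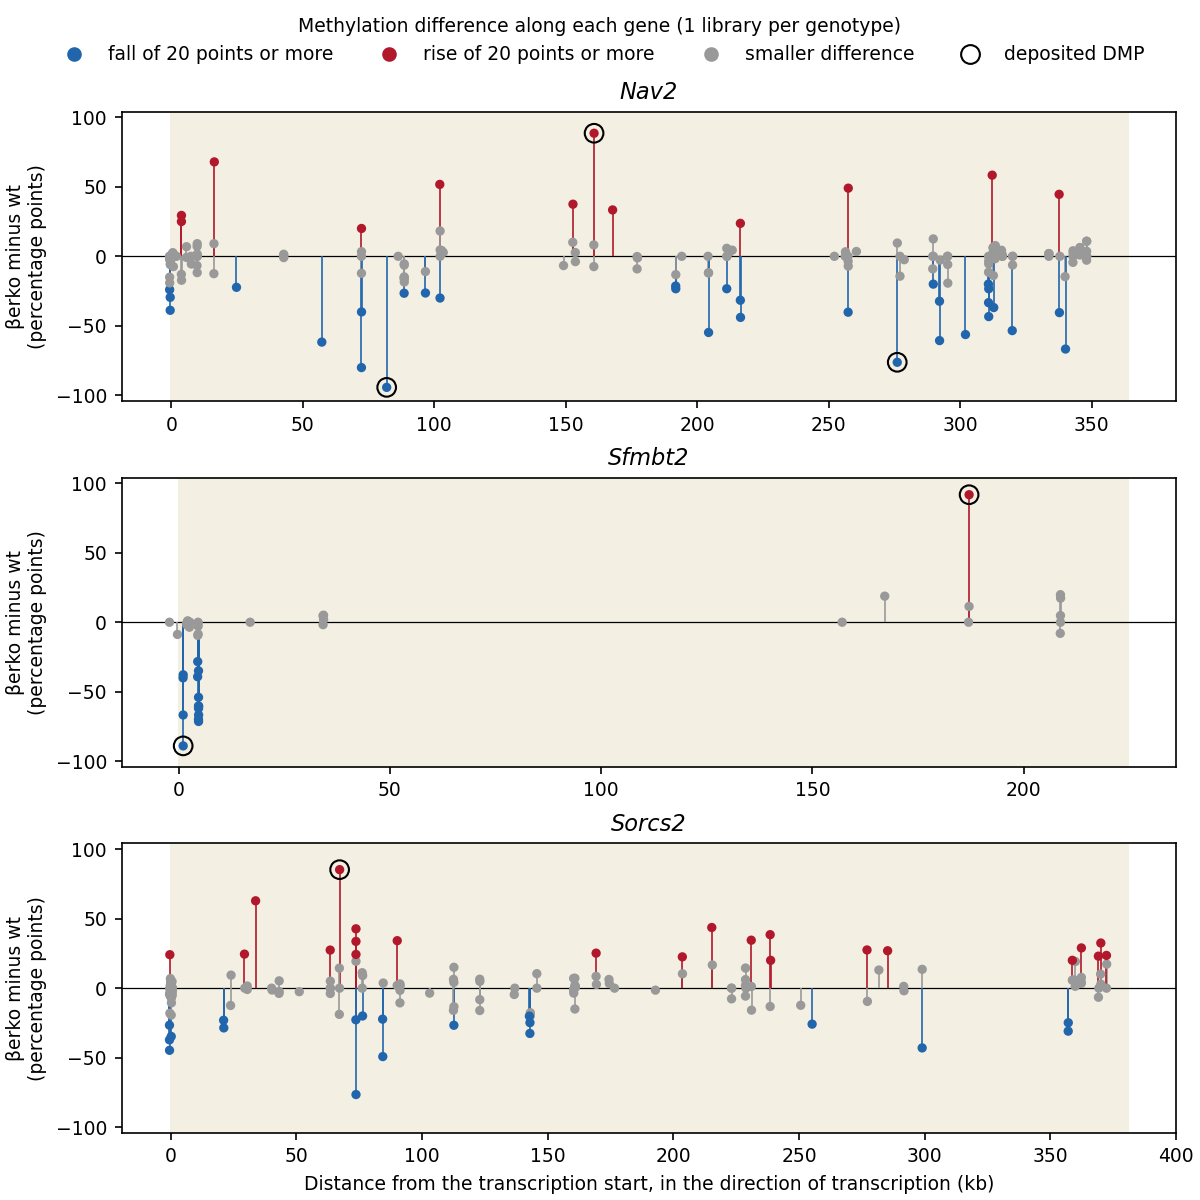
Difference in methylation (βerko minus wt, percentage points) of each covered position against its distance from the transcription start (kb), with the gene body shaded, falls of at least 20 points in blue, rises in red, smaller differences in grey and deposited DMPs circled. All 14 falls of Sfmbt2 lie within 5 kb of the start, whereas both falls and rises are spread over the length of Nav2 and Sorcs2.

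Coverage was patchy, and the maps can only be read where it exists. Positions separated by gaps of more than 500 bp formed 53 blocks in Nav2, 11 in Sfmbt2 and 47 in Sorcs2. The widest gap was 45747 bp in Nav2, 58086 bp in Sorcs2 and 122749 bp in Sfmbt2. The gap of Sfmbt2, between 10326446 and 10449195, contains all 119 microRNA genes annotated within the gene (10386914 to 10439906). No statement on the methylation of the microRNA cluster is possible from these positions.

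Sfmbt2 was the gene in which losses lay together. Positions from 1 kb before to 5 kb after the gene start, a window chosen after the values were seen, numbered 32 and held all 14 falls. Their mean was 31.6 % in wt against 6.08 % in βerko MEFs. The other 16 positions had a mean of 84.2 % in wt against 94.6 % in βerko MEFs, with 1 rise, the exon 17 position described above. In wt, 17 of the 32 positions near the start were below 20 % methylation, and the same 17 were below it in βerko MEFs. There, 28 positions in all were below 20 %.

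The losses flanked a stretch that was free of methylation in both libraries. From 10294050 to 10294712 in Sfmbt2, all positions were between 0 and 3.57 % in wt and between 0 and 2.02 % in βerko MEFs. The gene start used here is the outermost one in GENCODE. The GENCODE transcript with the most exons has its first exon in this stretch, between 10294200 and 10294251. Before this stretch lay a run of 4 falls from 10293173 to 10293203, which contains the DMP. Its positions were at 40, 100, 100 and 60 % in wt and at 0, 33.3, 11.1 and 22.2 % in βerko MEFs. Each position was thus lower in βerko MEFs, and the mean fell from 75.0 to 16.7 %. The DMP in this run had 5 wt and 9 βerko reads, so the run may rest on as few. The run spanned 31 bp, and the nearest covered positions outside it, 1328 bp before and 847 bp after, differed by -8.78 and -0.52 points.

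After the unmethylated stretch, a pair of positions at 10296622 and 10296643 was at 40.3 and 37.7 % in wt and at 1.15 and 9.41 % in βerko MEFs. It was followed by 5 positions from 10296649 to 10296742 that were at 12.9 % or lower in wt and 3.45 % or lower in βerko MEFs. Then came the longest run of the gene by number of positions, 8 falls from 10296819 to 10296851. Its positions ranged from 55.6 to 77.8 % in wt and from 0 to 20.6 % in βerko MEFs, and the mean fell from 66.7 to 6.76 %. All wt values of the run were 55.56, 66.67 or 77.78 %, steps that a small number of shared reads would give. The run may thus rest on few wt reads, and its depth is unknown. None of the 8 met the criterion for a DMP, because wt methylation did not exceed 80 %. At 10296819 and 10296843, wt methylation of 77.8 % was 2.22 points short. The nearest position outside was 77 bp before the run, at 8.51 % in wt against 0 % in βerko MEFs. On the other side the next covered position, at 10309052, was 12201 bp away and at 100 % in both libraries. Positions a few bases apart can be read by the same reads, and those of a run are not independent readings. The sequences of both runs are shown, on the plus strand, with the CpGs that fell in capitals.
Sfmbt2, run with the DMP, chr2:10293143-10293233: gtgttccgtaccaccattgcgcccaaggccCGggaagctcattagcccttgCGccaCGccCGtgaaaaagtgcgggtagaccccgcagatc
Sfmbt2, run of 8 falls, chr2:10296789-10296881: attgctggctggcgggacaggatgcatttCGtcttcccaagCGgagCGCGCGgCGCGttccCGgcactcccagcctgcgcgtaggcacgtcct

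Apart from exon 17, the other covered positions of Sfmbt2 downstream of the start region were at 75.0 % or higher in wt and 74.4 % or higher in the βerko library. The 5 positions from 10309052 to 10326446 were at 88.7 to 100 % in wt and 87.3 to 100 % in βerko MEFs. The 5 positions in coding exon 22 were at 75.0 to 100 % in wt and 74.4 to 100 % in βerko MEFs, and the largest difference among them was 19.8 points, at 10500871. The strand partner of that position, at 10500870, was at 100 % in both libraries.

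Nav2 and Sorcs2 each had 3 falls upstream of the gene start. In Nav2, 51 positions from 1 kb before to 5 kb after the start had a mean of 7.73 % in wt against 5.14 % in βerko MEFs, and 43 of them were below 20 % in both. The position at 56500941 was at 26.4 % in wt against 2.44 % in βerko MEFs, that at 56501149 at 42.2 and 3.39 %, and that at 56501156 at 31.2 and 1.69 %. These 3 falls were 403 to 618 bp before the gene start. Beside the first of them, 56500943 and 56500954 were lower by less than 20 points, with differences of -15.01 and -19.10. The upstream positions between and after them, from 56501037 to 56501085 and from 56501163 to 56501343, were at 7.34 % or lower in both.

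In Sorcs2, 73 positions near the start had a mean of 4.89 % in wt against 2.34 % in βerko MEFs, and 66 of them were below 20 % in both. A run of 3 falls lay 436 to 460 bp before the start, from 36741224 to 36741248. Its positions were at 48.8, 40 and 48.8 % in wt and at 4.17, 2.82 and 22.2 % in βerko MEFs. The next position towards the gene, 7 bp away, differed by -4.65 points, and no position of the region was covered further upstream. One position between the run and the gene, at 36741103, rose from 28.6 to 52.6 %. A fall in the first coding exon, at 36740548, was from 38.1 to 3.39 %. The upstream edges are shown because partly methylated CpGs (capitals, those that fell) lay there beside unmethylated ones.
Nav2, upstream edge, chr7:56501119-56501201: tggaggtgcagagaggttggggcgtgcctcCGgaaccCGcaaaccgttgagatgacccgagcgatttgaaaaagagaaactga
Sorcs2, upstream edge, chr5:36741194-36741278: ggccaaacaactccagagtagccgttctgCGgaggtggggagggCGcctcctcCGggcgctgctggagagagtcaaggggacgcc

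**Figure D4:**
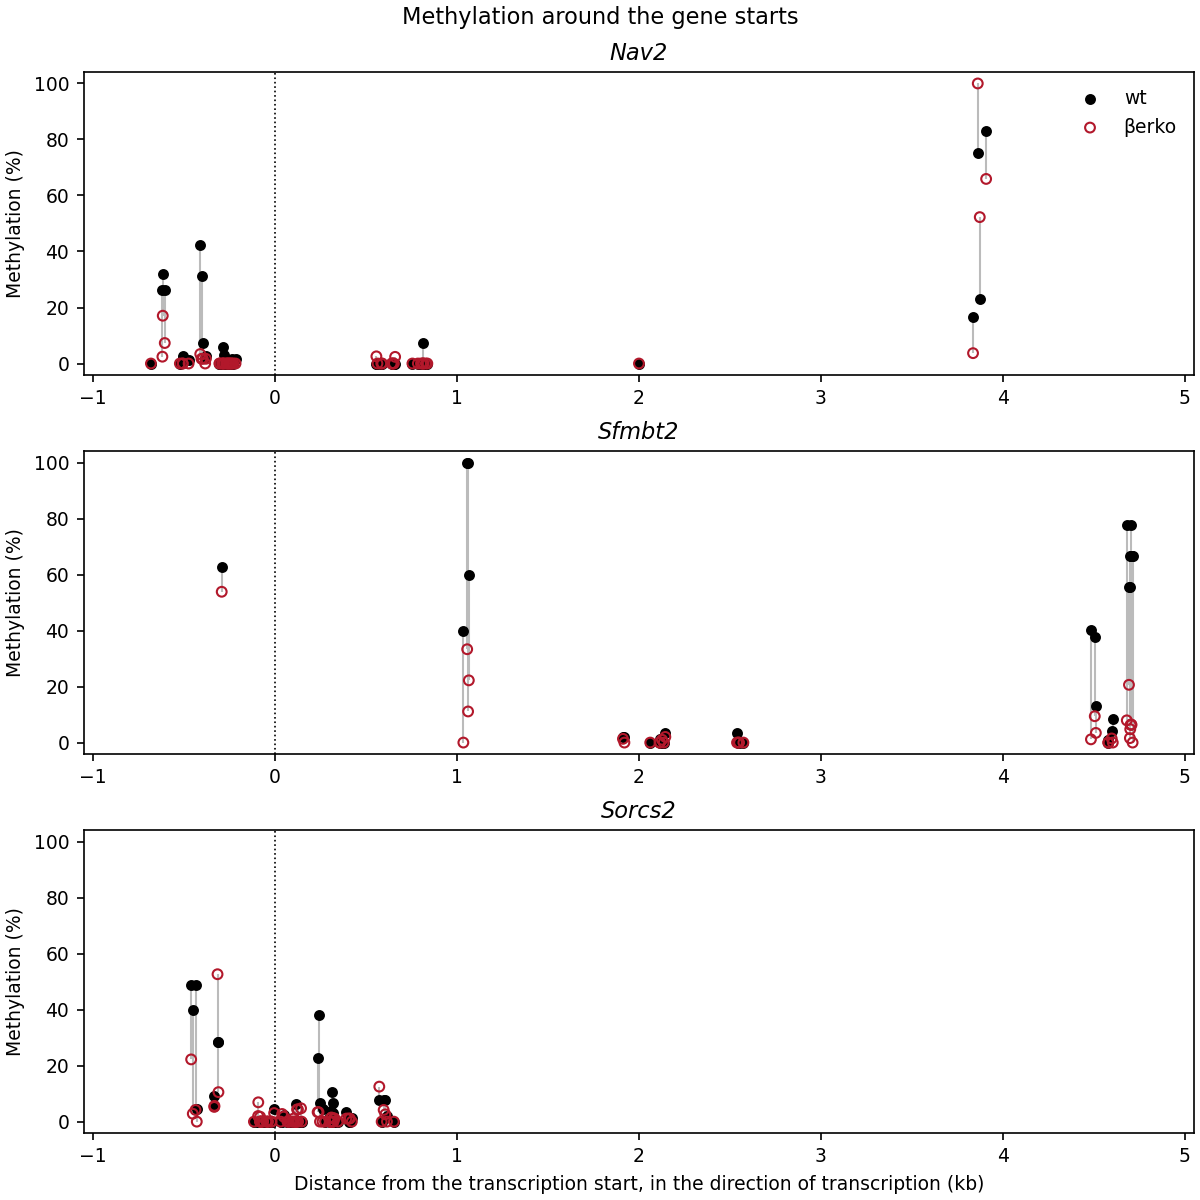
Methylation (%) of covered positions from 1 kb before to 5 kb after the transcription start in wt (black, filled) and βerko MEFs (red, open), each pair joined by a line. In Sfmbt2 the runs of 4 and 8 falls, near 1 and 5 kb, are far higher in wt (means 75.0 and 66.7 %) than in βerko MEFs (16.7 and 6.76 %), and in Nav2 and Sorcs2 the low positions around the start are low in both.

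In Nav2, changes did not form runs. Of the 31 falls and 12 rises, none lay in a run of 3 or more neighbouring positions that changed in the same direction with gaps of at most 500 bp. Over all covered positions, 37.1 % of falls and 13.1 % of rises lay in such runs. In Sfmbt2, 12 of 14 falls lay in 2 runs, and in Sorcs2, 6 of 19 falls lay in 2 runs and 3 of 22 rises in 1. Runs were thus absent from the gene with the most falls and made up nearly all falls of the gene with the fewest.

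Neighbours within 100 bp were counted on the same positions, so these counts are not separate from the runs. In Sfmbt2, most neighbours that fell lay in its runs. Next to the falls of Nav2, 18 of 82 neighbours (22 %) also fell and 6 (7.32 %) rose. For Sfmbt2, 70 of 86 neighbours of falls (81.4 %) fell and none rose, and for Sorcs2, 16 of 49 (32.7 %) fell and 6 (12.2 %) rose. Over all covered positions, 47.0 % of the neighbours of falls also fell and 3.95 % rose. Next to the rises of Nav2, 2 of 21 neighbours (9.52 %) rose and 6 (28.6 %) fell, and next to those of Sorcs2, 6 of 36 (16.7 %) rose and as many fell. Over all covered positions, these shares were 22.2 % and 11.6 %.

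Falls and rises at most 100 bp apart were found at 6 pairs of successive changed positions in Nav2 and 2 in Sorcs2. At 56758986 in intron 11 of Nav2, methylation was 93.8 % in wt against 53.6 % in βerko MEFs, and 51 bp away, at 56759037, it was 51.02 % and 100 %. At 56603684 in intron 1 it was 29.3 and 81.0 %, and 93 bp away it was 80 and 50 %. In intron 9, positions at 56717992, 56718000 and 56718058 were at 50, 47.4 and 52.5 % in wt and at 18.4, 71.1 and 8.62 % in βerko MEFs. Similar wt values thus moved apart within 66 bp.

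The deepest falls of Nav2 besides the DMPs were also in introns. At 56573889, methylation was 100 % in wt against 20.0 % in βerko MEFs, which did not meet the criterion of below 20 %. The other strand of this CpG was at 40 % in wt against 27.8 % in βerko MEFs, so that the strands differed by 60 points in wt. The plus-strand values of this patch were 60, 100 and 20 % in wt and 60, 20 and 40 % in βerko MEFs. Few shared reads would give such steps, and the depth is unknown. Some of the pairs of a fall and a rise counted above also lay in this patch. At 56558815, methylation was 86.7 % in wt against 25.0 % in βerko MEFs, 5 points short of the criterion. At 56841662 in intron 30 it was 100 and 33.3 %. The largest rise that was no DMP, at 56517930 in intron 1, was from 32.1 to 100 %, and its nearest neighbour, 132 bp away, rose by 9.09 points.

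By intron, Nav2 gave the following values. In intron 1, 8 of 49 positions fell and 5 rose, with means of 79.0 % in wt against 73.2 % in βerko MEFs. In intron 4, which holds the hypermethylated DMP, 2 of 7 rose and none fell (means 70.0 and 89.4 %). Without the DMP, 1 of the remaining 6 rose (79.8 and 87.6 %). In intron 6, 3 of 12 fell and none rose (76.7 and 64.4 %). Coding exons of Nav2 had 4 falls and no rise among 35 positions. The largest, in exon 14 at 56803613, was from 100 to 43.8 %.

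In Sorcs2, rises (22) were slightly more numerous than falls (19). Its introns held 19 of the 22 rises and 15 of the 19 falls. In intron 1, 11 of 79 positions fell and 8 rose, with means of 78.1 % in wt against 77.5 % in βerko MEFs. In intron 2, 6 of 25 rose and none fell, and the mean was 82.0 % in wt against 90.5 % in βerko MEFs. In intron 20, 2 of 6 rose and none fell (81.1 and 91.4 %).

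A rise of 20 points can start only from 80 % or below, and 73.6 % of all rises started between 20 and 80 % in wt. In Sorcs2, these were 21 of 22 rises. Of its 46 positions in this range, 21 rose and 9 fell. Of 67 positions below 20 % in wt, 1 rose, which was the DMP. Of all covered positions between 20 and 80 % in wt, 29.0 % rose and 30.9 % fell. In Nav2, 11 of 27 such positions rose and 10 fell, and in Sfmbt2, 12 of 16 fell and none rose. Among intermediate positions, rises and falls were thus close in number in Nav2, rises were more numerous in Sorcs2, and only falls were counted in Sfmbt2. The genes were chosen on this contrast, so no difference between them is read from these counts.

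The largest rise of Sorcs2 besides the DMP was at 36706976 in intron 1, from 26.7 % in wt to 89.5 % in βerko MEFs, and the nearest covered position was 3317 bp away. In intron 2, the position at 36525472 rose from 54.8 to 98.4 %. The longest run of falls of the gene, 3 positions over 226 bp from 36597812 in intron 1, was at 93.1, 86.2 and 77.3 % in wt and at 68.3, 53.7 and 57.1 % in βerko MEFs. Its mean difference was -25.8 points, beside -58.3 and -59.9 in the Sfmbt2 runs, and the 2 positions before it differed by -17.65 and -19.96 points, the second just under the limit.

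Both directions met in a patch of 42 bp in intron 1 of Sorcs2, 6474 bp from the DMP. At 36667031, methylation was 100 % in wt against 23.5 % in βerko MEFs. The 4 positions from 36667039 to 36667044, which are both strands of 2 CpGs, were at 36.4 to 57.1 % in wt and 60.6 to 87.1 % in βerko MEFs. Both strands of these CpGs were higher in βerko MEFs. At 36667072, methylation was 50 % in wt against 27.3 % in βerko MEFs. The run of 3 rises within the patch is shown with its CpGs in capitals, on the plus strand, and the sequence holds the whole patch.
Sorcs2, run of rises in intron 1, chr5:36667010-36667074: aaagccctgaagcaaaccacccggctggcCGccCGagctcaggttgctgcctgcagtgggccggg

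How well a single position can be read was seen from CpGs covered on both strands. There were 15 in Nav2, 2 in Sfmbt2 and 22 in Sorcs2. Over these 39, the strands differed by a median of 3.33 points in wt and 2.50 points in βerko MEFs. All but 4 had a mean over strands below 20 % or above 80 % in wt. These 4 differed by a median of 9.6 points there, beside 14.3 points over all 12396 such CpGs. The strands differed by at least 20 points at 2 of the 39 in wt against 1 in βerko MEFs. Over all 70667 such CpGs, 9.26 % differed by at least 20 points in wt against 7.93 % in βerko MEFs. Of the 4 CpGs of the genes with a fall or rise on one strand, 1, in the Sorcs2 patch, had the same change on the other. Over all covered positions, 5466 of 10597 CpGs with a fall had it on both strands, as did 2048 of 5279 CpGs with a rise.

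The changed positions were compared with all positions by sequence. Of the 64 falls, 33 (51.6 %) lay in a CCGG site, and of the 35 rises 22 (62.9 %), beside 228 of all 454 positions (50.2 %). Over all covered positions, 39.1 % lay in CCGG, as did 44.3 % of hypomethylated and 71.7 % of hypermethylated DMPs. All 3 hypermethylated DMPs of the genes lay in CCGG, and of the hypomethylated ones that at 56583486 in Nav2. The 202 bases centred on a CpG held a median of 13 CpGs over all positions. Around the hypermethylated DMPs they held 5 in Nav2, 4 in Sfmbt2 and 6 in Sorcs2. Around the hypomethylated ones they held 2 and 7 in Nav2 and 11 in Sfmbt2. Over all DMPs the median was 13 for hypomethylated and 4 for hypermethylated ones. The falls had a median of 16 in Sfmbt2, 6 in Nav2 and 5 in Sorcs2, beside 11 for all falls. The rises had a median of 5 in Nav2 and 4.5 in Sorcs2, beside 6 for all rises.

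The oestrogen response element consists of GGTCA half-sites that face each other 3 bases apart. GGTCA or its reverse complement was found in these 202 bases at 28.5 % of all covered positions, at 144 of the 454 positions (31.7 %), at 15 of the 64 falls (23.4 %) and at 18 of the 35 rises (51.4 %). Over all falls the share was 30.4 % and over all rises 33.2 %. It was not found around any of the 6 DMPs, beside 30.1 % of all hypomethylated and 35.1 % of all hypermethylated DMPs. The element with at most 1 mismatch was found near 11 positions of Nav2, all unchanged, of which 10 lay in 1 patch of a coding exon from 56814155 to 56814249, and near 0.637 % of all covered positions. Neighbouring positions share their window, so these numbers count patches repeatedly. A match of letters does not show a binding site.

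The related genes of each family gave the following. Nav1 had 5 hypomethylated DMPs and no hypermethylated one among 186 positions, with means of 59.5 % in wt against 55.7 % in βerko MEFs. Its DMPs lay within 161 bp, from 137407148 to 137407308 on chromosome 1, unlike the single ones of Nav2. In wt the Nav1 DMPs had 6, 6, 37, 6 and 11 reads, so part of this cluster may rest on the same few wt reads. Nav3 had no DMP among 23 positions (means 92.5 and 81.8 %). Sfmbt1 had none and was low in both (8.89 and 7.39 %). Sorcs1 had none among 53 positions (42.2 and 38.5 %) and Sorl1 none among 83 (70.7 and 71.8 %). Sorcs3 had 1 hypermethylated DMP among 105 positions, of which 34 rose and 10 fell (39.6 and 47.4 %). Sort1, which encodes sortilin, had 1 hypomethylated DMP among 128 positions (29.9 and 28.2 %). Of the VPS10 family genes listed, Sorcs2, which was chosen for its DMP, and Sorcs3 each had 1 hypermethylated DMP. Such DMPs made up 0.237 % of all covered positions, and no family pattern is read from single ones.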

How the data were processed

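RRBS of 1 wt and 1 βerko MEF library was analysed. The submitters' processing notes name CASAVA 1.4 and the build mm9, and the authors used the Genomatix Mining Station for mapping. The authors deposited percent methylation per cytosine where both libraries had reads, without depth, and for DMPs the read counts of both libraries. Methylated reads at DMPs were percent times reads, which came out whole (within rounding of the percentage) at 100 % of 8071 DMPs. The depth of other positions is unknown. All 826937 positions were CpG cytosines of NCBIM37, and genes were taken from GENCODE vM1.

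A DMP had at least 5 reads in both libraries, below 20 % methylation in 1 of them and above 80 % in the second. Runs had at least 3 successive positions differing by at least 20 points in 1 direction, with gaps of at most 500 bp. Named were all DMPs, the 3 longest runs per direction and gene, and related genes; other positions (pairs, patches, largest changes outside DMPs, start windows) were chosen after their values were seen. The genes and lists were chosen with earlier results of these data known. With 1 library per genotype no test was made. Intervals are exact (Clopper-Pearson, 95 %). The run search was tested on simulated data. Alternatives covered the read minimum, thresholds, step, gap, strands and region. Python 3.11.15, NumPy 2.4.6, pandas 2.3.3, SciPy 1.17.1 and matplotlib 3.10.9 were used.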

Additional observations from a re-analysis of the deposited data

How the results depend on the processing

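Of the values under other settings, 77 moved by less than 1.5 times, 24 moved by more, and none changed sign. With at least 10 reads, Nav2 had 1 hypomethylated DMP and Sfmbt2 0, and with thresholds of 10 and 90 % hypomethylated DMPs numbered 1 in Nav2 and 0 in Sfmbt2, and hypermethylated ones 0 in Nav2 and 0 in Sorcs2. With at least 4 reads, or no read minimum, Sfmbt2 had 1 hypermethylated DMP. A step of 10 points gave 51 falls in Nav2, 5 rises in Sfmbt2, and 34 falls and 35 rises in Sorcs2. A step of 40 points gave 14 falls and 6 rises in Nav2, and 4 falls and 4 rises in Sorcs2, whose longest runs of falls and of rises were then 0 bp. The number of falls in Sfmbt2 (14) stayed within 1.5 times under both steps. With strands merged, the run of rises in Sorcs2 was lost (0 bp). Medians in place of mean differences were 0 in Nav2, -1.09 in Sfmbt2 and 0 in Sorcs2. The Sorcs2 mean difference was 1.31 points in the gene body alone and 0.226 points without its DMP. The last 2 settings leave out positions by construction; for the others the cause was not tested. No paired analysis was possible because each genotype had 1 library, and no replicate could be left out. Depth limits the Sfmbt2 DMPs most, with 5 and 9 reads at one and 12 and 4 at the other.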
